A study of Mus musculus with 14 samples.

Results

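The miR-143 and miR-145 cluster was described across the 4 cell populations that flow cytometry separates from the mouse mammary gland. Its 2 members, the assays mmu-miR-143 and mmu-miR-145, were found by name among the 584 miRNA probes of the normalized table, with passenger-strand assays left out, and both lie on plate A of the 2 array plates. Both passed the filter on low values, and both had a Ct below 40 in all 14 samples. The Ct is the PCR cycle at which fluorescence crosses a threshold, so a lower Ct means more RNA, and 40 stands for an undetected reaction. Values below are normalized log2 expression, which the authors made by turning the sign of Ct and adjusting the samples to each other, so that 1 unit is a factor of 2 if each PCR cycle doubles the product.

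The cells came from untreated adult mice of the FVB/N strain and no population carried a transgene or received an agent. Stroma (CD29- CD24-) was represented by 4 samples, the MaSC/basal fraction (CD29hi CD24+), which holds stem cells and myoepithelial cells, by 4, luminal progenitors (CD29lo CD24+ CD61+) by 3 and mature luminal cells (CD29lo CD24+ CD61-) by 3. Each sample is a pool of mice. Epithelial samples 1 to 3 of the different populations share mouse pools 1 to 3, whereas the labels give every stromal sample mouse pool 5. The 4 stromal samples are thus not independent sets of animals, their spread leaves out that between sets of mice, and stroma and its mouse pool cannot be told apart.

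In smooth muscle, miR-143 and miR-145 are processed from 1 primary transcript, whose transcription is driven by serum response factor with myocardin. There they hold vascular cells in the contractile state, in part by repressing factors such as KLF4 and ELK1 that favour growth. Both were described early on as miRNAs reduced in colon tumours. Later work in the mouse gut placed them in mesenchymal and muscle cells and not in the epithelium, so their level in a tissue is often read as a level of stroma. The mammary gland differs in holding a contractile epithelial cell: the myoepithelial cell, which carries smooth muscle actin and squeezes milk from the alveoli under oxytocin. In the RefSeq annotation of GRCm38.p6 the genes Mir143 and Mir145a both lie within the span of Carmn, a long non-coding RNA gene known from smooth muscle. These properties make it of interest whether the pair follows the stroma, the basal epithelium or both.

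Of 17 miRNA names looked up in the RefSeq miRNA table of GRCm38.p6, 5 matched exactly. The sequences of 3 of them are given because the results below set the cluster beside them. Levels of miR-34b-3p and miR-125b-5p followed the cluster in the epithelium. The mesenchymal miR-199a-3p differed far less than the cluster between MaSC/basal and luminal cells. They are written from 5′ to 3′, with the seed, bases 2 to 8, in capitals.
miR-34b-3p: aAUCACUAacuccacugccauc
miR-125b-5p: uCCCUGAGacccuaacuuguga
miR-199a-3p: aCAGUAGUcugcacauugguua
No 2 of these 3 share a seed.

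One library went against its label. The library labelled MaSC/basal 4, which comes from mouse pool 4 and is left out of the study's overview of mouse samples, was placed for each probe on a scale from 0 at the luminal mean to 1 at the mean of MaSC/basal samples 1 to 3. Over 163 probes that differed between those populations and were detected in all 14 samples its median place was 0.0153, and 140 of the 163 (85.9%) lay nearer the luminal mean. Its miR-143 and miR-145, which are among the 163, lay beyond the luminal mean, at -0.085 and -0.20. Comparisons below use the other 13 samples, which are those of the study's overview. Values with this library are given beside the comparisons that involve MaSC/basal cells where it ends a call. Markers were checked for the contrasts of stroma with epithelium and of MaSC/basal with luminal cells. None of the lists was made to tell the luminal populations apart. All 9 epithelial miRNAs on a list that holds miR-205, the miR-183 cluster and the miR-200 family were lower in stroma than in epithelium. Their median log2 difference was -6.25, in a comparison that called 33.8% of all probes lower. Between MaSC/basal and luminal cells 1 of the 9 was called higher and 2 lower, beside 23.1% and 17.2% of all probes. The higher was miR-205, known from basal epithelium, at 4.65. The lower were miR-141 at -1.32 (adjusted p = 0.0087) and miR-200c at -1.27 (adjusted p = 9.1e-04). Epithelial samples had a Ct below 40 for 338 to 366 of the miRNA assays and stromal samples for 448 to 454. Most of this gap lay on plate B, with 160 to 162 in stroma and 81 to 87 in epithelium, while plate A had 287 to 292 in stroma and 256 to 279 in epithelium.

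Both miRNAs were highest in the MaSC/basal fraction, followed by stroma, luminal progenitors and mature luminal cells. The level of miR-143, which represses ELK1 in smooth muscle, was 21.82, 21.95, 21.78 and 21.77 in stroma. In MaSC/basal samples 1 to 3 it was 25.59, 26.65 and 25.85. It was 20.55, 20.49 and 20.47 in luminal progenitors and 19.03, 19.65 and 19.45 in mature luminal cells. No 2 of these 4 populations overlapped, and the library labelled MaSC/basal 4, at 19.42, lay within the range of mature luminal cells. How many of all probes separate the populations in this way was not counted, so the absence of overlap sets no probe apart.

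For miR-145, which represses KLF4 and is the more studied of the pair in smooth muscle differentiation, stroma gave 26.20, 26.21, 26.11 and 26.40. MaSC/basal samples 1 to 3 gave 28.05, 29.20 and 28.54. Luminal progenitors gave 23.41, 23.68 and 23.87, and mature luminal cells gave 21.96, 22.67 and 22.35. The order and the absence of overlap were those of miR-143, with the same limit. The library labelled MaSC/basal 4, at 21.86, was below every other sample.

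**Figure D1:**
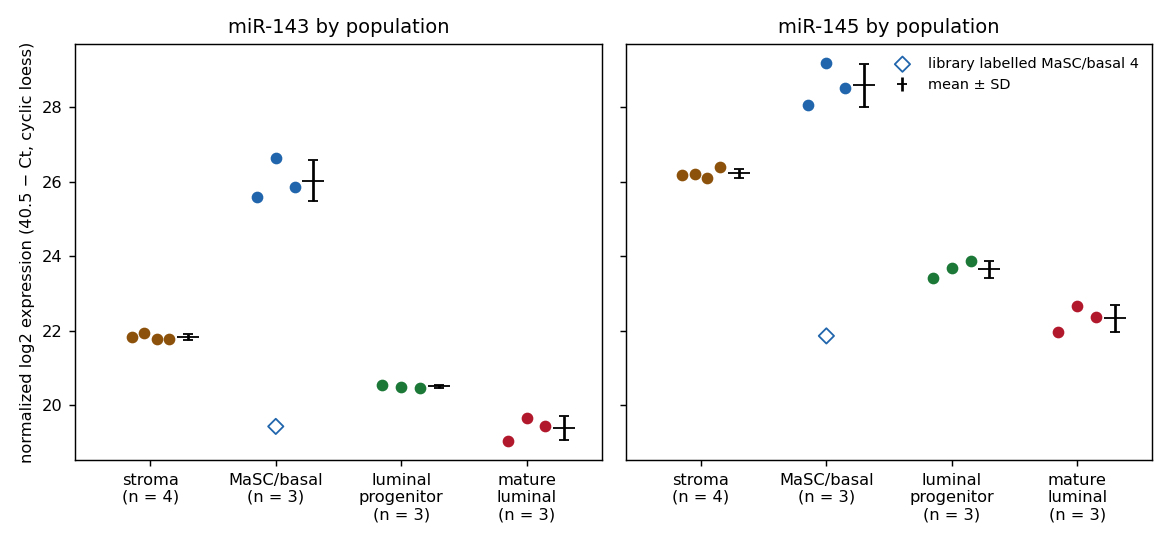
Normalized log2 expression of miR-143 (left) and miR-145 (right) in each sample of stroma, MaSC/basal, luminal progenitor and mature luminal cells, with the mean and SD beside the points. Both panels show the same order, with MaSC/basal means of 26.03 and 28.60 at the top, and the library labelled MaSC/basal 4 (open diamond, not in the mean) at 19.42 and 21.86.

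Both assays reacted early in every population, far from the limit of detection. In Ct values before normalization, miR-143 crossed the threshold at 17.6 to 18.7 cycles in stroma, 14.1 to 15.5 in MaSC/basal samples 1 to 3, 19.9 to 20.8 in luminal progenitors and 20.6 to 21.1 in mature luminal cells. For miR-145 these ranges were 13.7 to 14.9, 11.5 to 12.9, 16.7 to 17.2 and 17.5 to 17.9 cycles in the same order of populations. The Ct ranges of the luminal populations overlapped for miR-143 and did not for miR-145. Assays differ in their efficiency, so the lower Ct of miR-145 says nothing of which of the 2 miRNAs is more abundant.

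Within the epithelium both miRNAs were far higher in MaSC/basal than in luminal cells. miR-143 averaged 26.03 ± 0.55 in MaSC/basal cells (SD, n = 3) and 19.94 ± 0.65 in luminal cells (SD, n = 6), a log2 difference of 6.09 (SE 0.22, limma adjusted p = 6.8e-09), or 68.2-fold. miR-145 averaged 28.60 ± 0.57 in MaSC/basal cells and 22.99 ± 0.77 in luminal cells, a difference of 5.61 (SE 0.24, adjusted p = 1.8e-08), or 48.7-fold. Among the 459 probes tested these were the 10th and the 14th highest differences, whereas 23.1% of the probes were called higher in MaSC/basal cells and the median over all probes was 0.14. Since the RNA is that of bulk populations, more cells that express the cluster and more of its RNA per cell cannot be told apart.

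The same difference was present in each mouse pool. Within pools 1, 2 and 3, the MaSC/basal sample exceeded the luminal average by 5.80, 6.58 and 5.89 for miR-143 and by 5.37, 6.02 and 5.43 for miR-145. Pool 2 gave the largest value for both miRNAs, and its MaSC/basal sample held the highest level of both. With all 14 samples, where 23.9% of 460 probes were called in either direction, the differences were 4.44 (adjusted p = 0.015) for miR-143 and 3.92 (adjusted p = 0.027) for miR-145.

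Each luminal population contributed to this contrast. Luminal progenitors averaged 20.50 ± 0.04 for miR-143 and were lower than MaSC/basal cells by a log2 difference of -5.53 (SE 0.25, adjusted p = 4.2e-08). For miR-145 they averaged 23.65 ± 0.23, with a difference of -4.94 (SE 0.28, adjusted p = 1.6e-07), and 20.7% of probes were called lower in this comparison. With the library labelled MaSC/basal 4 included, the differences were -3.88 (adjusted p = 0.056) and -3.26 (adjusted p = 0.12), and neither was called. Mature luminal cells averaged 19.38 ± 0.31 for miR-143, 101-fold below MaSC/basal cells at a difference of -6.65 (SE 0.25, adjusted p = 1.6e-08). Their miR-145 averaged 22.33 ± 0.36, 77.1-fold below, at -6.27 (SE 0.28, adjusted p = 3.6e-08). In that comparison 22% of probes were called lower, and miR-143 and miR-145 were the 6th and the 8th lowest of the 459. A test of any difference among the 3 epithelial populations called 44.4% of probes, with an adjusted p of 2.7e-08 for miR-143 and of 6.0e-08 for miR-145.

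The difference between the luminal populations was smaller. Mature luminal cells had less miR-143 than luminal progenitors, at a log2 difference of -1.13 (SE 0.25, adjusted p = 0.0089), or 2.18-fold, and less miR-145, at -1.32 (SE 0.28, adjusted p = 0.0068), or 2.51-fold, in a comparison where 11.1% of probes were called lower. Within pools 1, 2 and 3 it was -1.51, -0.84 and -1.02 for miR-143, and -1.45, -1.01 and -1.51 for miR-145. The call depended on the scaling. With U6 alone as the reference the differences were -0.81 (adjusted p = 0.22) and -1.18 (adjusted p = 0.081), and without normalization they were -0.43 (adjusted p = 0.60) and -0.79 (adjusted p = 0.24).

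Stroma did not stand above the epithelium as a whole for both miRNAs. For miR-143, stroma averaged 21.83 ± 0.08 (SD, n = 4) and the 9 epithelial samples 21.97 ± 3.10, a difference from the averaged epithelial population means of -0.14 (SE 0.19, adjusted p = 0.51). For miR-145, stroma averaged 26.23 ± 0.12 and the epithelium 24.86 ± 2.88, a difference of 1.37 (SE 0.21, adjusted p = 8.6e-05), or 2.58-fold. With the library labelled MaSC/basal 4 included, the differences were 0.41 (adjusted p = 0.73) and 1.93 (adjusted p = 0.11). This comparison called 81.7% of all probes in either direction, so that a call in it sets no probe apart, and its median over all probes was 0.62. Its direction turned with the scaling, as miR-143 was 0.59 with U6 alone, 0.45 without normalization and -1.23 (adjusted p = 1.2e-04) with median centring, which also gave -0.32 for miR-145. Under these scalings the median over the 304 probes detected in all 13 samples was 1.31, 1.12 and -0.55, against -0.34 with the deposited normalization.

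The mean over the epithelium joins populations on both sides of stroma. Stroma held less of both miRNAs than MaSC/basal cells, with differences of -4.20 for miR-143 (SE 0.24, adjusted p = 1.7e-08), or 18.4-fold, and of -2.37 for miR-145 (SE 0.26, adjusted p = 8.1e-06), or 5.16-fold. In this comparison 30.7% of probes were called lower in stroma, and the direction was the same under each of the scalings, between -4.95 and -3.37 for miR-143 and between -3.55 and -1.97 for miR-145. With the library labelled MaSC/basal 4 included, the differences were -2.55 (adjusted p = 0.081) and -0.68 (adjusted p = 0.65), so that neither was called. Against luminal progenitors, stroma was higher by 1.33 for miR-143 (SE 0.24, adjusted p = 3.3e-04) and by 2.58 for miR-145 (SE 0.26, adjusted p = 3.5e-06), where 49.2% of probes were called higher. With median centring these values were 0.05 (adjusted p = 0.87) and 0.52 (adjusted p = 0.065). Against mature luminal cells, stroma was higher by 2.46 for miR-143 (SE 0.24, adjusted p = 2.2e-06) and by 3.90 for miR-145 (SE 0.26, adjusted p = 8.0e-08), where 46.4% of probes were called higher.

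The measured ratio of the 2 members of the cluster was not constant across the populations. The log2 ratio of miR-143 to miR-145 was -4.37, -4.26, -4.33 and -4.62 in stroma. In MaSC/basal samples 1 to 3 it was -2.46, -2.55 and -2.69. It was -2.86, -3.19 and -3.40 in luminal progenitors and -2.93, -3.02 and -2.91 in mature luminal cells. Stroma lay below every epithelial sample, MaSC/basal lay above every luminal sample, and the luminal populations overlapped. Because the assays differ in efficiency, the ratio is read only between samples and not as a ratio of molecules. Whether unequal efficiency also shifts the ratio with the level of the RNA was not tested.

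**Figure D2:**
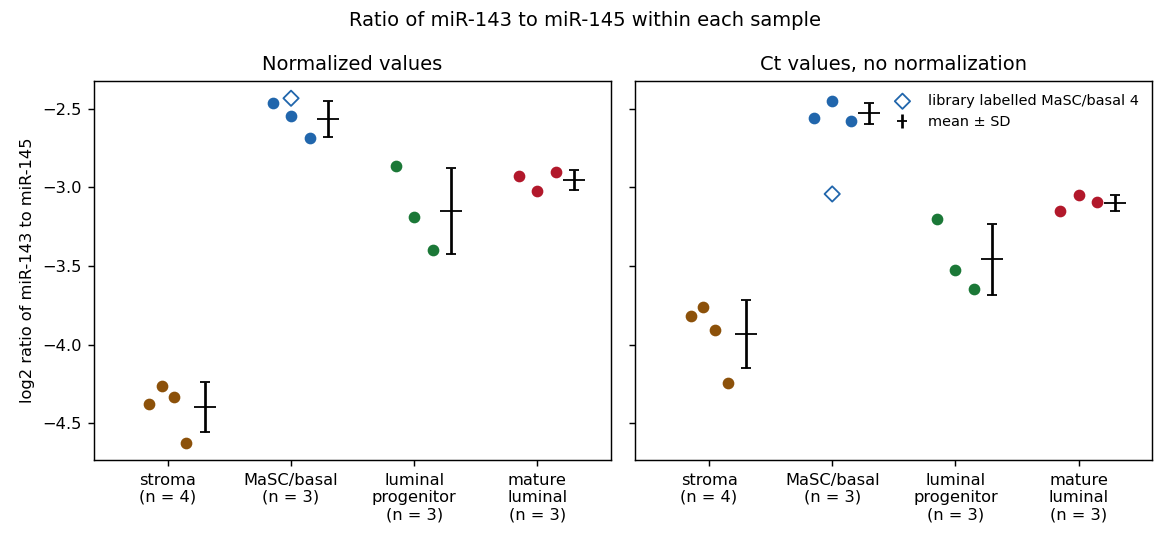
Log2 ratio of miR-143 to miR-145 in each sample of the 4 populations, from normalized values (left) and from Ct values without normalization (right), with the mean and SD beside the points. Stroma lies lowest in both panels, and the library labelled MaSC/basal 4 (open diamond, not in the mean) moves from -2.43 on the left to -3.04 on the right.

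The ratio averaged -4.40 ± 0.16 in stroma (SD, n = 4) and -2.89 ± 0.30 in the 9 epithelial samples, a difference of -1.51. A two-sided exact permutation test over samples gave p = 0.0028, the smallest that 4 samples against 9 allow, and 0.011 after adjustment over the 4 ratio comparisons. The tests with stroma treat samples as independent, although all stromal samples come from mouse pool 5 and the epithelial samples share pools 1, 2 and 3. These p-values therefore leave out the spread between sets of mice in stroma. Against MaSC/basal cells alone, at -2.57 ± 0.11, the difference was -1.83, where the exact test of 4 samples against 3 cannot go below the p of 0.057 that it gave (0.076 adjusted). MaSC/basal cells and luminal cells, at -3.05 ± 0.21, differed by 0.49 (exact p = 0.024, the smallest possible, and 0.048 adjusted), and the difference within pools 1, 2 and 3 was 0.43, 0.56 and 0.47. Paired within the 3 pools, the exact p cannot go below the 0.25 that was found. Without any 1 of the 9 epithelial samples the adjusted p was between 0.071 and 0.14, with differences of 0.42 to 0.55. So few samples then remain that no arrangement could have passed the threshold after adjustment. Mature luminal cells and luminal progenitors, at -2.95 ± 0.06 and -3.15 ± 0.27, differed by 0.20 (exact p = 0.40), less than the spread among luminal progenitors, and in opposite directions in different pools (-0.07, 0.17 and 0.50). From Ct values without normalization this difference was 0.36, with no overlap and the same sign in pools 1, 2 and 3 (0.06, 0.48 and 0.55), and the exact p was 0.1, the smallest that 3 samples against 3 allow.

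The order of stroma, luminal cells as a whole and MaSC/basal cells by their ratios was the same without normalization, while the overlap of the luminal populations was not. Taken from Ct values alone, where any factor shared by the sample cancels, the differences were -0.90 between stroma and epithelium, -1.40 between stroma and MaSC/basal cells and 0.75 between MaSC/basal and luminal cells, again with no overlap. The ratio from Ct values ranged from -4.24 to -3.76 in stroma, from -2.58 to -2.45 in MaSC/basal samples 1 to 3 and from -3.65 to -3.05 in luminal cells. The library labelled MaSC/basal 4 had a normalized ratio of -2.43, above the other MaSC/basal samples, and a Ct ratio of -3.04, next to the luminal range.

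Mesenchymal miRNAs separated the populations in another way. Of a list of 6, 5 were higher in stroma than in epithelium and miR-140, known from cartilage, was lower at -0.58, with a median of 4.73, in a comparison that called 47.9% of all probes higher and 33.8% lower. Its direction was not kept with U6 alone, at 0.15 (adjusted p = 0.61). The miR-199a and miR-214 pair, which shares a mesenchymal transcript, showed the largest differences of the list. miR-199a-3p, whose sequence is given above, averaged 26.18 ± 0.17 in stroma and 18.00 ± 0.51 in the 9 epithelial samples, a difference of 8.18. miR-214 averaged 24.72 ± 0.32 in stroma and 16.69 ± 0.59 in the epithelium, a difference of 8.03. Neither was called between MaSC/basal and luminal cells, with differences of 0.45 for miR-199a-3p (adjusted p = 0.20) and 0.00 for miR-214 (adjusted p = 0.99). With U6 alone, however, they were 1.41 (adjusted p = 0.011) and 1.07 (adjusted p = 0.020).

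Over the whole list, 2 of 6 mesenchymal miRNAs were called higher in MaSC/basal than in luminal cells and none lower, with a median of 0.67, beside 23.1% of all probes called higher and 17.2% lower. These were miR-140 at 1.70 (adjusted p = 2.9e-06) and miR-152, a miRNA of the miR-148 family, at 0.97 (adjusted p = 0.0048). With U6 alone 4 were called higher, and with median centring or without normalization only miR-140 was. Between the luminal populations 1 of the 6 was higher in mature luminal cells and 2 were lower, beside 10.9% and 11.1% of all probes. The higher was miR-10b at 1.26 (adjusted p = 0.0052), the lower miR-214 at -1.17 (adjusted p = 0.012) and miR-152 at -1.11 (adjusted p = 0.011). With U6 alone or without normalization 1 was higher and none lower. The mean level of the list lay between 21.9 and 22.2 in stroma, between 17.6 and 18.3 in MaSC/basal samples 1 to 3 and between 16.7 and 17.6 in luminal cells. The stromal range was thus apart from all epithelial samples, while those of MaSC/basal and luminal cells overlapped at their ends.

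Set against this mean within each sample, the cluster was again higher in MaSC/basal than in luminal cells. miR-143 exceeded the mesenchymal mean by 8.08 ± 0.58 in MaSC/basal cells and by 2.65 ± 0.45 in luminal cells, a difference of 5.43, and it was at -0.24 ± 0.11 relative to that mean in stroma. miR-145 exceeded it by 10.65 ± 0.53 in MaSC/basal cells and by 5.70 ± 0.59 in luminal cells, a difference of 4.94, and by 4.16 ± 0.21 in stroma. Both differences between MaSC/basal and luminal cells had an exact permutation p of 0.024, the smallest that 3 samples against 6 allow, also after adjustment over the 2 miRNAs. The levels of mesenchymal miRNAs were measured here and not the number of stromal cells.

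**Figure D3:**
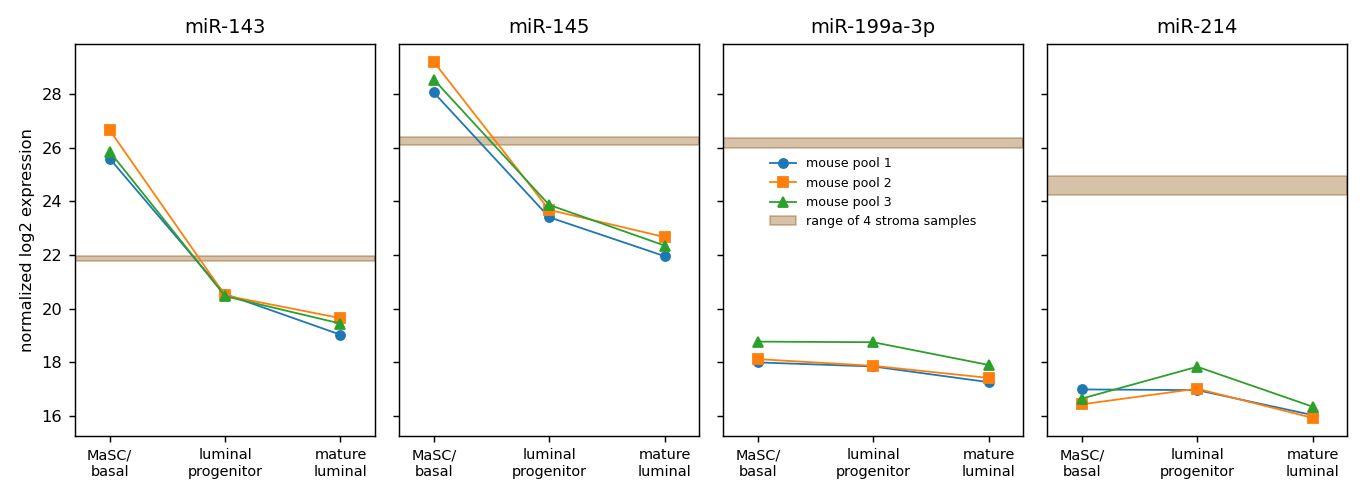
Normalized log2 expression of miR-143, miR-145, miR-199a-3p and miR-214 in MaSC/basal, luminal progenitor and mature luminal samples, joined by line within mouse pools 1 to 3, with the range of the 4 stroma samples as a band. miR-143 and miR-145 fall in each pool and their MaSC/basal points lie above the stromal band, whereas those of miR-199a-3p, with a mean of 18.30, and of miR-214, with a mean of 16.70, lie far below it.

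Endothelial and blood cell miRNAs differed less between MaSC/basal and luminal cells than the cluster did. The arms of the endothelial miR-126 hairpin differed by 0.80 for miR-126-3p (adjusted p = 0.0090) and by 0.74 for miR-126-5p (adjusted p = 0.081). With U6 alone both were called, at 1.26 (adjusted p = 0.0043) and 1.50 (adjusted p = 0.0075), and with median centring or without normalization neither was. The mean of both arms lay between 22.6 and 22.9 in MaSC/basal samples 1 to 3 and between 21.4 and 22.8 in luminal cells. In mature luminal cells against luminal progenitors, where the cluster was lower, miR-126-3p was higher by 1.00 (adjusted p = 0.012, and 0.074 without normalization). None of the 5 blood cell miRNAs tested was called between MaSC/basal and luminal cells, with a median of -0.25, although 1 was called with U6 alone. Of all probes 23.1% were called higher and 17.2% lower there. Stroma did not hold more of these markers than the epithelium. miR-126-3p was at -0.72 (adjusted p = 0.0028), and 2 of the 5 blood probes were lower and none higher, beside 33.8% and 47.9% of all probes. With U6 alone neither arm of miR-126 was called and 2 blood probes were higher. The mean of the blood list lay between 15.01 and 15.80 in MaSC/basal samples 1 to 3 and between 15.53 and 15.99 in luminal cells. The part of these cells in the levels of the cluster was not tested.

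**Figure D4:**
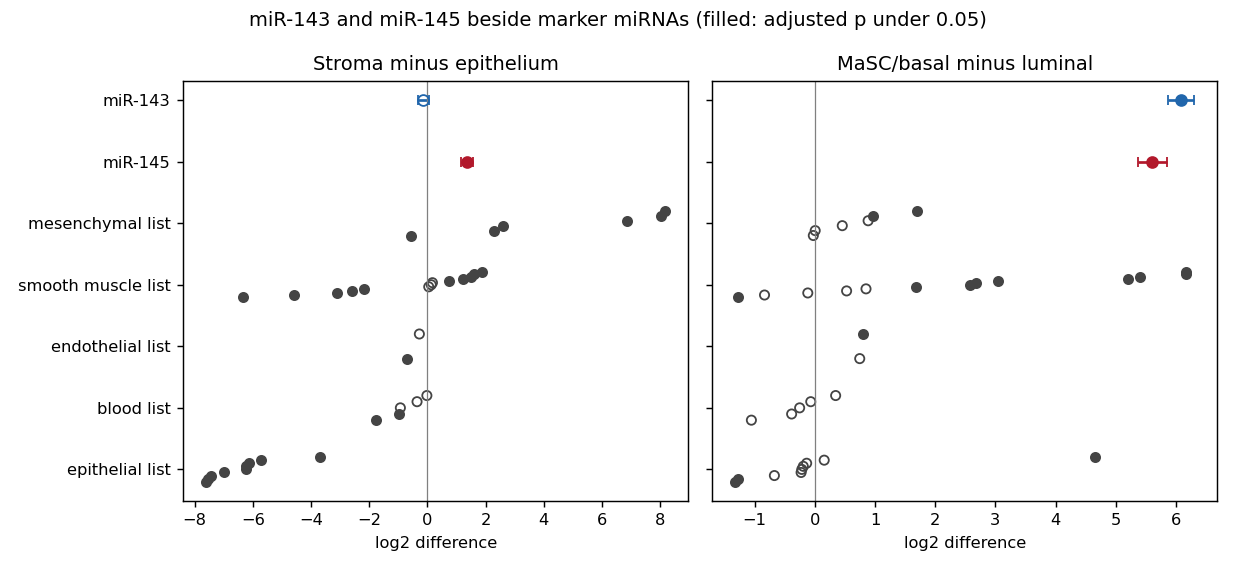
Log2 differences of miR-143 and miR-145 (with SE) and of the probes on 5 lists of marker miRNAs, for stroma minus epithelium (left) and MaSC/basal minus luminal cells (right), where filled points have an adjusted p under 0.05. miR-143 and miR-145 lie at -0.14 and 1.37 on the left and at 6.09 and 5.61 on the right, while the mesenchymal list has medians of 4.73 on the left and 0.67 on the right.

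Other miRNAs known from smooth muscle were taken as a list of 12 names, measured by 13 probes, since miR-1 has a mouse and a rat assay that count separately. Between MaSC/basal and luminal cells, 8 of the 13 probes were higher and 1 was lower, with a median of 2.58 beside 0.14 over all probes, of which 23.1% were called higher and 17.2% lower. miR-133a and miR-133b were both higher by 6.17 and miR-1 by 5.20, and miR-133a and miR-1 are controlled by serum response factor in muscle. miR-222 and miR-221, which promote the growth of vascular smooth muscle cells, were higher by 3.05 and 2.58, miR-146a by 2.68 and miR-24 by 1.68. The lower probe was miR-10a, at -1.28, which was not called with U6 alone, and miR-206, known from skeletal muscle, was at -0.12 (adjusted p = 0.88). Under the other scalings 7 to 9 probes were higher and 0 to 2 lower.

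The levels of the muscle miRNAs followed the cluster only in part. miR-133b averaged 19.18 ± 0.51 in MaSC/basal cells and 13.01 ± 1.88 in luminal cells, and it was lower in stroma, at 10.46 ± 0.49, than in any epithelial population by its mean. In stroma against MaSC/basal cells, 4 of the 13 probes were higher and 8 lower, with a median of -1.74, where 46.2% of all probes were called higher and 30.7% lower. miR-222 averaged 24.84 ± 0.07 in stroma and 26.74 ± 0.63 in MaSC/basal cells, a difference of -1.90, and like the cluster it was above its luminal level of 23.69 ± 0.16 in both. In stroma against the whole epithelium the list was split, with 5 higher and 5 lower, where 47.9% of all probes were called higher and 33.8% lower. The split moved with the scaling, to 1 higher and 8 lower with median centring, 7 higher and 3 lower with U6 alone and 6 higher and 3 lower without normalization.

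The list and the cluster went opposite ways between the luminal populations. In mature luminal cells against luminal progenitors, 8 of the 13 probes were higher and none lower, with a median of 1.20, where 10.9% of all probes were called higher and 11.1% lower, and 7 or 8 were higher and none lower under the other scalings. miR-133b was higher by 3.32, miR-21, a miRNA induced in many growing tissues, by 3.07, miR-1 by 3.01 and miR-206 by 2.70. By contrast miR-143 and miR-145 had the values of -1.13 and -1.32 given above. All 5 striated muscle probes tested were among those higher in mature luminal cells, and 4 of these 5 were higher in MaSC/basal than in luminal cells. The mean level of all 6 striated muscle probes on the plates lay between 15.7 and 16.4 in MaSC/basal samples 1 to 3. It ranged from 11.2 to 11.6 for luminal progenitors and from 13.1 to 14.4 for mature luminal cells. This mean includes miR-208, which was not among the 5 probes tested. miR-208 averaged only 0.56 over MaSC/basal samples 1 to 3 and 1.88 over luminal samples, so the mean lies below that of the tested probes. The part of this level in the difference of the cluster was not tested.

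The miRNAs with the pattern most like the cluster were sought among 303 other probes detected in all 13 samples. Over the 9 epithelial samples the closest to each member was the other member, with a Pearson r of 0.998. It was followed for miR-143 by miR-34b-3p (r = 0.993), miR-125b-5p (r = 0.992), miR-34c* (r = 0.991) and miR-140 (r = 0.991). For miR-145 it was followed by miR-125b-5p (r = 0.996), miR-100 (r = 0.995), miR-34c* (r = 0.990) and miR-99a (r = 0.988). miR-34b and miR-34c come from 1 cluster that p53 induces, and miR-100 and miR-99a are near-identical miRNAs encoded with copies of miR-125b, so the assays of miR-100 and miR-99a may not be fully separate. With samples of 3 populations that differ in level, r mostly describes the population means, and all values share the normalization.

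With stroma included the likeness between the members was lower. Over the 13 samples miR-143 and miR-145 had an r of 0.953, and each had closer partners. These were miR-34c* (r = 0.971) and miR-222 (r = 0.961) for miR-143, which was followed by miR-204 (r = 0.940) and miR-324-3p (r = 0.939). For miR-145 they were miR-34c* (r = 0.985), miR-34b-3p (r = 0.982) and miR-324-3p (r = 0.962), with miR-125b-3p (r = 0.944) after miR-143. Of these, miR-34c* was measured on plate B, where some control RNAs, given below, differed widely between stroma and epithelium. miR-34b-3p averaged 18.58 in stroma, 20.78 in MaSC/basal cells and 14.18 in luminal cells, an order like that of the cluster. miR-125b-5p averaged 26.74 in stroma, 24.84 in MaSC/basal cells and 20.79 in luminal cells, so that in contrast to the cluster its stromal level was the highest. In the library labelled MaSC/basal 4 these 2 miRNAs were at 14.30 and 19.84, nearer their luminal than their MaSC/basal means.

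The passenger strand of the miR-145 hairpin, the strand that is usually degraded, had its own assay on plate B, and no assay named miR-143* is on the plates. miR-145* was detected in all 4 stromal samples, at Ct values of 32.9, 32.7, 31.0 and 31.2, and in 1 of the 9 epithelial samples, MaSC/basal 1, at 38.8. The other epithelial samples and the library labelled MaSC/basal 4 had a Ct of 40. Stroma was thus the only population with a passenger strand in every sample, while the guide strand was higher in MaSC/basal cells. On the same plate, however, the control RNAs U87 and snoRNA135 were undetected in all 9 epithelial samples and had a Ct of 20.8 ± 0.93 and 16.3 ± 0.76 in stroma, and snoRNA202 was at 13.7 ± 0.81 in stroma and 33.7 ± 1.05 in epithelium. On plate A, which holds the cluster, U87 was at 21.8 ± 0.74 in stroma and 22.3 ± 0.82 in epithelium, and snoRNA202 at 13.9 ± 0.73 in stroma and 16.3 ± 0.85 in epithelium. The control RNA Y1 differed more on this plate, at 21.4 ± 0.46 in stroma and 27.9 ± 0.59 in epithelium, and its plate B values were 24.4 ± 0.94 in stroma and 25.8 ± 1.00 in epithelium. The part of the plates in the differences between stroma and epithelium was not tested, and no fold is given for miR-145*.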

How the data were processed

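Mouse mammary populations were profiled by real-time PCR after reverse transcription and pre-amplification with primer pools. As raw data the authors deposited Ct values for 597 assay positions in 14 samples. The deposited log2 values were made by the authors with limma as 40.5 minus Ct, followed by cyclic loess (span 0.7, 5 iterations, U6 weighted 100) for 584 probes, and a rerun gave them to within 5.3e-14. A table of the authors' own fold changes and p-values was not used.

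Probes with a log2 value of at least 2 in at least 3 of 13 samples were kept (459, or 460 with 14 samples). Population means were fitted with lmFit and eBayes (limma 3.58.1, R 4.3.3; 9 residual and 1.44 prior degrees of freedom), with Benjamini-Hochberg adjustment over all kept probes at 0.05. Ratios were tested by exact permutation over samples (scipy 1.17.1). These tests treat samples as independent, which the stromal samples, from the same mouse pool, are not. The fit was tested on simulated data. The number of samples limits the precision. The limma p-values for stroma use 1 spread shared by all populations, to which the stromal samples add none between mouse pools.

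The labels give same-numbered epithelial samples 1 mouse pool, so the numbers pair them. Deviations from the population means correlated with a median r of 0.22 in 9 same-pool pairs (7 above 0.1) and of -0.12 in 18 others. Alternatives were the pool as a block, all 14 samples, U6 alone, median centring, no normalization, no filter, plate A alone, epithelial samples alone, leaving out each sample and, chosen after seeing the data, cyclic loess over the 13 samples. The named miRNAs are the members, their passenger strands, the fixed lists and, per member, the 5 most correlated probes. Members and lists were chosen with earlier results of these data known.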

Additional observations from a re-analysis of the deposited data

Results flagged for a closer look

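The library labelled MaSC/basal 4 lay apart from the other MaSC/basal samples for both members. The gap to the nearest sample made up 0.853 of the range of the 4 samples for miR-143 and 0.844 for miR-145, above Dixon's 95% critical value for 4 samples. Of 6 such checks, over both miRNAs and their ratio in MaSC/basal cells and stroma, these were the only ones past that value, and chance alone flags about 1 in 20. The ratio of the 2 miRNAs in this library did not stand apart (0.55).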

How the results depend on the processing

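Of 504 alternative values for 24 results, 464 kept their direction and side of the threshold. With all 14 samples, stroma minus epithelium was 0.41 for miR-143 and 1.93 (adjusted p = 0.11) for miR-145, stroma minus MaSC/basal -2.55 and -0.68, stroma minus luminal progenitor 1.33 and 2.58, stroma minus mature luminal 2.46 for miR-143, luminal progenitor minus MaSC/basal -3.88 and -3.26, and mature luminal minus luminal progenitor -1.13 and -1.32, none of them called, while the ratio between stroma and MaSC/basal was -1.86 (exact permutation, adjusted p = 0.038). In this fit the residual spread includes that library. The exact test of the ratio treats the stromal samples as independent, with the limit given above. Median centring gave -1.23 (called) and -0.32 for stroma minus epithelium and 0.050 and 0.52 for stroma minus luminal progenitor. U6 alone gave 0.59 for stroma minus epithelium of miR-143, and -0.81 and -1.18 for mature luminal minus luminal progenitor. No normalization gave 0.45, and -0.43 and -0.79, for the same differences. The cause of these changes was not tested.

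With the mouse pool as a replicate block, the differences between MaSC/basal and luminal cells in the ratio (0.49) and relative to mesenchymal miRNAs (4.94 for miR-145 and 5.43 for miR-143) had an exact p of 0.25, the smallest 3 pools allow, and the block changed no other call. Without 1 sample they ranged from 0.42 to 0.55, from 4.64 to 5.14 and from 5.12 to 5.68, where 2 samples against 6 cannot go below 0.071. The call of the ratio was lost each time 1 of the 9 epithelial samples was left out. Too few samples then remain for any arrangement to pass the threshold after adjustment, so this loss was fixed by the design. Each call by limma kept its side of the threshold without any 1 of the 13 samples, with the highest adjusted p, 0.044, for miR-143 between the luminal populations.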
